A study of Saccharomyces cerevisiae with 28 samples.

Results

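The data described here compare Saccharomyces cerevisiae lacking YPR045C (THP3) with wild type, both in log-phase growth at 30 °C. They comprise 2 of the 28 two-colour arrays of a study of splicing in deletion mutants, chosen by their labels alone. One array carried the mutant cDNA in Cy5 and the wild-type cDNA in Cy3, and on the other the dyes were exchanged. The study assayed 8 deletion strains, each hybridised against wild type grown under the same conditions: csn12, ist3, isy1, csn9 and pci8 were in log phase like YPR045C, and tgs1 and ynr004w were sampled at 30 °C and after a shift to 16 °C. The labels name neither the strain background nor the mating type, and do not say whether the strains shared 1 wild-type RNA. Nothing in the labels says that the 2 YPR045C arrays came from separate cultures, so no p-value is known to measure spread between YPR045C cultures. Those over single arrays may measure technical spread only. The others rest on spread between time points of other strains or between different mutants, as given below.

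Thp3 binds Csn12 in the yeast nucleus, in a complex related to TREX-2, the complex that couples transcription at nuclear pores to mRNA export, and the Thp3-Csn12 complex has been linked to transcription elongation and to splicing. Splicing removes introns from pre-mRNA on the spliceosome, in which Ist3 belongs to the RES complex and Isy1 to the Prp19-associated complex. Relatively few yeast genes hold an intron, and many of those encode ribosomal proteins. Arrays for splicing therefore carry several probes per intron gene, whose ratios can part when unspliced RNA accumulates.

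Each value below is a log2 ratio of mutant over wild type, centred on the array median, and "pair mean" is the average of both arrays, in which a dye effect cancels. The direction is likely rather than stated, since channel 1 held the mutant on both arrays. The mating genes below had one sign on both, which shows that both columns run the same way but not which way. With the opposite direction, higher and lower would swap throughout. Errors are standard errors (SE) from limma, in which the single YPR045C pair was assumed to vary like the 16 °C pairs of tgs1 and of ynr004w. Those are 1 pair at each of 10, 25 and 40 min after the shift, treated as repeats, so the spread behind every pair-mean call is that between time points, not between cultures. A gene was called at an adjusted p under 0.05. Beside it stands a stricter limma fit over 28 single arrays with a dye term, whose median SE was 0.146 against 0.0648. Its spread is how far the difference between both arrays of a pair departed from a dye effect common to all pairs. It holds array noise and any dye effect that varied between pairs, which cancels in a pair mean. A gene not called over single arrays was thus not shown to fail on repetition. The arrays held 982 named genes. Between them, 9048 or more of 9216 spots had a value. The dye effect was large: the difference between both YPR045C arrays correlated with the mean of the other 13 pairs at r = 0.85 over genes (a description, since genes are not replicates). As deposited, both arrays correlated at r = -0.37 over spots. With the dye effect of the other 13 pairs removed the value was 0.41 over genes, but -0.25 without the mating genes. With that of csn12 and ist3 alone it was 0.79, and 0.37 without the mating genes. The difference between both YPR045C arrays correlated with that of csn12 at 0.94 and of ist3 at 0.91. Unless stated otherwise, values below with the dye effect removed use the 13 pairs and depend on that choice. Small differences therefore rest on a mean of 2 arrays whose likeness depends on the dye estimate.

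THP3 had no named probe, so its loss could not be checked. Of the genes beside it in the RefSeq table, MCM16 also had none. RPL43A, which encodes a large ribosomal subunit protein, had ratios of 0.20 and 0.45 and a pair mean of 0.33 ± 0.08 (adjusted p = 0.024, and 0.91 over single arrays). Its pair means in the other 5 log-phase strains were 0.09 to 0.41.

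The largest differences from wild type were in genes that distinguish the mating types. The alpha-factor genes, the receptor for a-factor and MATALPHA1 rose, and both a-factor genes fell. MF(ALPHA)1, the main gene for the alpha-factor pheromone, had ratios of 4.78 with the mutant in Cy5 and 4.90 with the mutant in Cy3, a pair mean of 4.84 ± 0.20 or 28.7-fold. MF(ALPHA)2, the minor alpha-factor gene, had 3.56 and 2.48, a mean of 3.02 ± 0.18 or 8.11-fold. STE3, the a-factor receptor of alpha cells, had 2.96 and 2.46, a mean of 2.71 ± 0.15 or 6.55-fold. All 3 alpha-specific genes measured, of 4 listed, thus lay far above 0 on both arrays. MFA1 and MFA2 both encode a-factor. MFA1 had -2.03 and -2.25, a mean of -2.14 ± 0.17. MFA2 had -3.19 and -3.13, a mean of -3.16 ± 0.10, which is 8.95-fold lower than in wild type. These were the 2 measured of 8 listed a-specific genes, and both fell. Adjusted p in limma was between 7.2e-09 and 2.4e-05 for these 5 genes over pair means, and between 4.5e-11 and 3.6e-06 over single arrays.

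The mating type locus encodes the regulators of these genes. MATALPHA1, the activator of alpha-specific genes, had ratios of 3.74 and 4.24 and a mean of 3.99 ± 0.12 or 15.9-fold. MATALPHA2, the repressor of a-specific genes, had 1.27 and 0.59, a mean of 0.93 ± 0.07. HMRA2, from the silent a cassette, had 1.05 and 0.90, a mean of 0.98 ± 0.10. HMRA1, the silent copy of the a1 regulator, had -0.02 and -0.47, a mean of -0.25 ± 0.06. So 3 of the 4 measured members rose and HMRA1 fell, and the 3 that rose were also called over single arrays (adjusted p of 2.1e-11, 0.032 and 0.018), whereas HMRA1 was not (0.91). The expressed and silent cassettes share sequence, as do both alpha-factor genes, so these probes may not tell their targets apart.

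Of 25 listed pheromone response genes 7 were measured: 5 rose and none fell, where 7.74% of all genes rose and 11.1% fell. KAR4, a transcription factor for nuclear fusion, had 1.05 and 0.71, a mean of 0.88 ± 0.08. SST2, which ends signalling by the pheromone receptor's G protein, had 0.70 and 0.94, a mean of 0.82 ± 0.08. Both were called over single arrays as well (adjusted p = 0.0014 for each). FUS3, the MAP kinase of the pathway, had 0.28 and 1.05, a mean of 0.66 ± 0.06, and the transcription factor gene STE12 had 0.16 and 1.08, a mean of 0.62 ± 0.09. KSS1, a second MAP kinase, had 0.02 and 0.50, a mean of 0.26 ± 0.07. With the dye effect of the other 13 pairs removed, both arrays were alike for FUS3 (0.68 and 0.65) and KSS1 (0.26 and 0.26), and STE12 had 0.51 and 0.73. These 3 were not called over single arrays (adjusted p of 0.43, 0.080 and 0.95). The kinase genes STE11 (-0.17 ± 0.06) and STE7 (-0.12 ± 0.07) were not called. In ist3, SST2 was 0.81, STE12 0.61, FUS3 0.52, KAR4 0.50 and KSS1 0.04, and in csn12 KSS1 was 0.51.

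The same genes stood elsewhere in most other mutants. MF(ALPHA)1 was 5.24 in ist3 and between 0.06 and 0.61 in csn12, csn9, pci8 and isy1. It was -4.53 in tgs1 and -4.44 in ynr004w at 30 °C. MFA2 was -2.10 in ist3, -0.73 in csn12, 2.21 in tgs1 and 2.02 in ynr004w. The YPR045C pair mean lay above all 13 other pair means for MATALPHA1, MF(ALPHA)2 and STE3. It lay below all of them for MFA1 and MFA2. In each of these genes ist3 came next, at 3.25, 1.90, 2.23, -1.47 and -2.10 in that order. In limma over pair means the difference from ist3 passed for MATALPHA1, MF(ALPHA)2 and MFA2. It did not pass for STE3 (0.48 ± 0.21) or MFA1. Because no mating type is given for either strain on the arrays, loss of YPR045C and a difference in mating type between the 2 hybridised strains cannot be told apart.

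**Figure D1:**
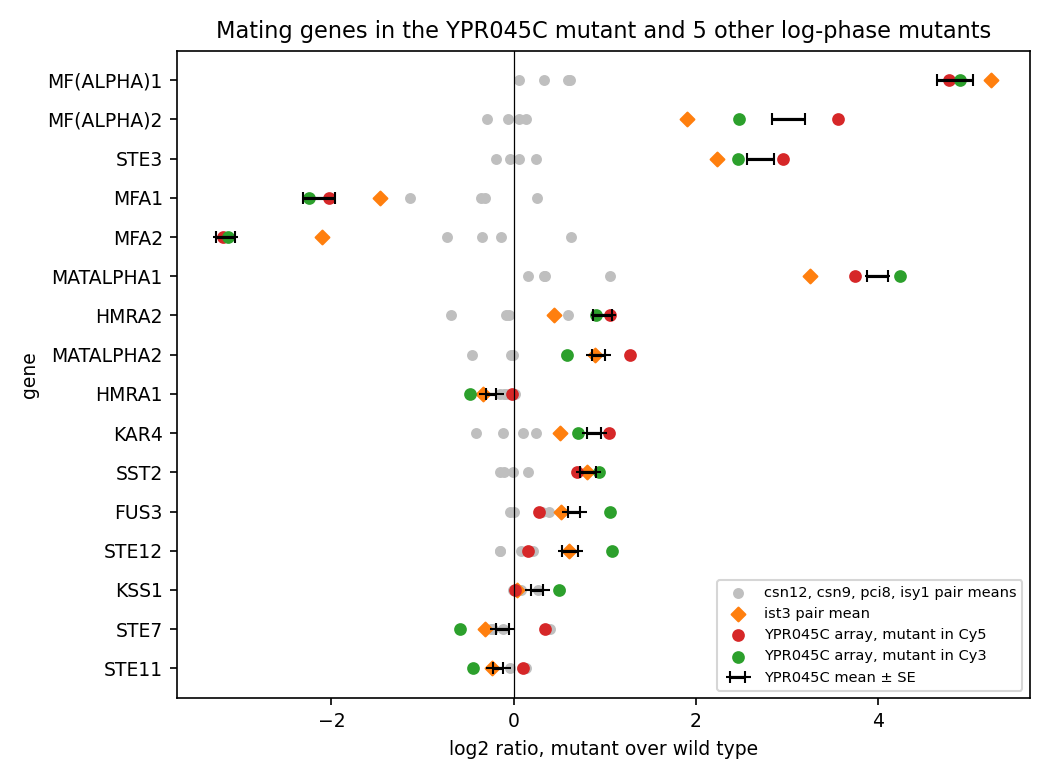
Log2 ratios of mutant over wild type (horizontal axis) for the 16 measured genes of the 4 mating lists (vertical axis). Red and green points are the 2 YPR045C arrays, black bars their pair mean with its SE from limma, orange diamonds the ist3 pair mean and grey points the csn12, csn9, pci8 and isy1 pair means. MF(ALPHA)1, MATALPHA1, MF(ALPHA)2 and STE3 lie above 2.4 on both arrays, MFA1 and MFA2 below -2.

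Over the whole array 185 of 982 genes (18.8%) were called from pair means, 76 higher (7.74%) and 109 lower (11.1%), and 10 (1.02%) over single arrays, 8 higher and 2 lower. All 10 were the mating genes MF(ALPHA)1, MF(ALPHA)2, STE3, MATALPHA1, MATALPHA2, HMRA2, KAR4, SST2, MFA1 and MFA2. Of the 185 genes, 67 (6.82% of those tested) had one sign on both arrays, 34 higher and 33 lower, and 139 (14.2%) had one sign once the dye effect of the other 13 pairs was removed. Among the 966 genes outside the 4 mating lists, 171 were called from pair means and none over single arrays, where limma gave 55 genes of all 982 an unadjusted p under 0.05. Their median absolute ratio was 0.11, and only 5 called genes exceeded 0.5 in size and none exceeded 1. Both arrays were more alike when the dye effect came from csn12 and ist3 alone: r was 0.79 over genes, and 0.37 without the mating genes. In the array titles of these pairs and of YPR045C, the identifier in brackets opens with the same number. In a limma fit of those 6 arrays, added after the data were seen, 10 genes were called and 168 of 982 had an unadjusted p under 0.05.

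**Figure D2:**
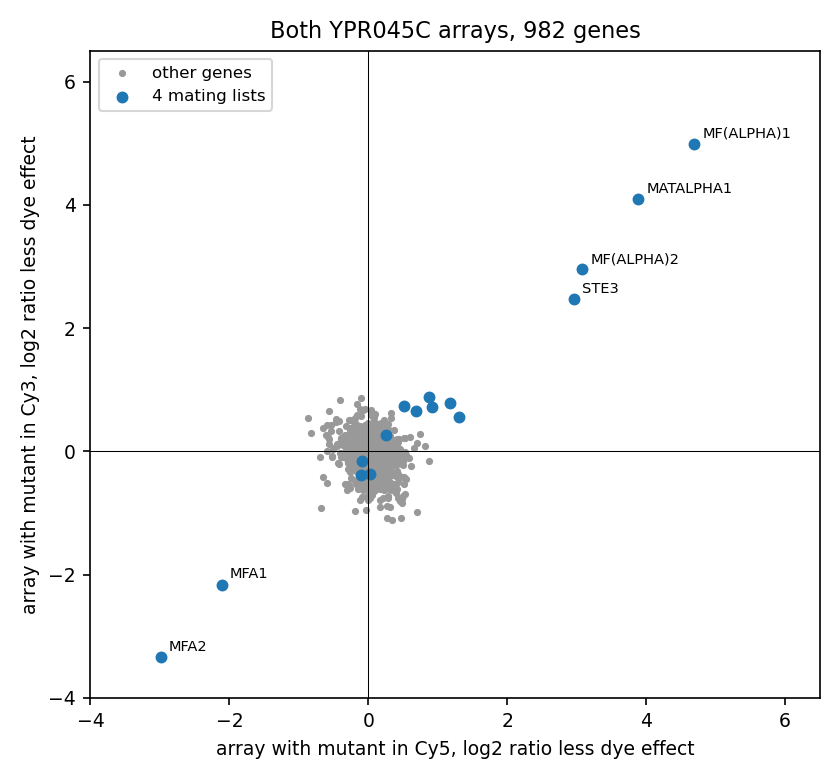
Log2 ratios of 982 genes on the YPR045C array with the mutant in Cy5 (horizontal axis) and in Cy3 (vertical axis), each less the mean dye effect of the other 13 pairs. The mating genes (blue) spread along the diagonal up to a pair mean of 4.84, and the other genes (grey) form a cloud without a diagonal around 0 (r = -0.25). With the dye effect of csn12 and ist3 alone, which is not drawn, r for the other genes was 0.37.

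Outside the mating genes, the highest genes with one sign on both arrays were PRP39, YAP6, RPA34, GCN1 and NOP56. PRP39, a U1 snRNP protein that acts at the 5′ splice site, had ratios of 0.17 and 0.86 and a mean of 0.51 ± 0.08 (adjusted p = 0.0024, and 0.45 over single arrays). It was 0.54 in csn12 and -0.15 to 0.26 in the other 4 log-phase strains. YAP6, a bZIP transcription factor, had 0.16 and 0.79, a mean of 0.47 ± 0.10, against 1.33 in csn12. RPA34, a subunit of RNA polymerase I, had 0.31 and 0.60, a mean of 0.46 ± 0.09, and GCN1, an activator of the kinase Gcn2 in amino acid starvation, had 0.31 and 0.52, a mean of 0.42 ± 0.10. NOP56, a box C/D snoRNP protein, had 0.30 and 0.43, a mean of 0.36 ± 0.08. With the dye effect removed, PRP39 (0.75 and 0.28), YAP6 (0.33 and 0.62), RPA34 (0.82 and 0.09) and GCN1 (0.70 and 0.13) stayed above 0 on both arrays. NOP56 did not, at 0.88 with the mutant in Cy5 and -0.15 with it in Cy3.

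The lowest genes with one sign on both arrays included the mitochondrial tRNA genes tC(GCA)Q and tV(UAC)Q, TOA2, GAT1, GAL11 and CYC8. The cysteine tRNA gene tC(GCA)Q had -0.59 and -0.999, a mean of -0.80 ± 0.08 (adjusted p = 0.00015, and 0.27 over single arrays), with 0.39 in ist3 and -0.59 in csn9. The valine tRNA gene tV(UAC)Q had -0.37 and -0.51, a mean of -0.44 ± 0.09. TOA2, the small subunit of TFIIA, had -0.17 and -0.90, a mean of -0.54 ± 0.06, below its -0.30 to -0.03 in the other 5 log-phase strains. GAL11, a Mediator tail subunit, had -0.46 and -0.36, a mean of -0.41 ± 0.05. CYC8, which forms the Tup1-Cyc8 corepressor, had -0.59 and -0.20, a mean of -0.40 ± 0.07, where the other 5 log-phase strains had -0.03 to 0.15. GAT1, an activator of nitrogen-repressed genes, had -0.06 and -0.80, a mean of -0.43 ± 0.06. With the dye effect removed, TOA2 had -0.65 and -0.42, GAT1 -0.33 and -0.53, and GAL11 -0.29 and -0.53, so all 3 lay below 0 on both arrays. CYC8 then had -0.70 and -0.09. Also called with one sign on both arrays were DBP5 (-0.36 ± 0.06), the helicase that releases mRNA at the pore, and the nucleoporin genes NUP116 (-0.33 ± 0.06) and NUP192 (-0.31 ± 0.07). With the dye effect removed these 3 were lower on the Cy3 array, DBP5 at -0.08 and -0.63, for example. CET1, the RNA triphosphatase of mRNA capping, was low on both (-0.37 and -0.28, a mean of -0.33 ± 0.08). The remaining genes of that rank were PTK1, a kinase that regulates polyamine uptake (-0.37 ± 0.07), RLM1, a transcription factor of the cell wall integrity pathway (-0.33 ± 0.06), and RPS22B, a small ribosomal subunit protein gene (-0.34 ± 0.07). YLL017W was lower in the mean (-0.58 ± 0.08) but had 0.08 and -1.24 on the 2 arrays, and -0.19 and -0.97 with the dye effect removed.

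Gene groups near the known roles of Thp3 showed small differences in both directions, and no member of any list outside the mating genes was called over single arrays. Counts below are from pair means and are to be read against the background of 7.74% higher and 11.1% lower. Of 24 measured genes in the list for TREX-2, THO and mRNA export, 2 rose and 3 fell. The 24 include POL3, which encodes a DNA polymerase and is not an export gene. The median was 0.07, against -0.02 over all genes. DBP5 and NUP116 are given above, the nucleoporin gene NUP159 had 0.22 ± 0.06, and THO2, the largest THO subunit, had 0.25 and -0.74, or -0.07 and -0.42 with the dye effect removed, a mean of -0.24 ± 0.06. Among 8 genes of the COP9 signalosome, ubiquitin and RUB1 group 1 fell, DCN1, which promotes cullin neddylation (-0.23 ± 0.06). Of 89 genes for spliceosome and snRNP proteins 7 rose and 6 fell, with a median of 0.01. Beside PRP39 they included YJU2 (0.44 ± 0.06) and PRP16 (0.32 ± 0.05), which act in the first and second catalytic steps, and TGS1, the cap hypermethylase of snRNAs (-0.31 ± 0.06). All 3 had opposite signs on the arrays as measured and one sign with the dye effect removed: YJU2 had 0.33 and 0.54, PRP16 0.18 and 0.45, and TGS1 -0.07 and -0.56. In the tgs1 deletion at 30 °C the TGS1 probe read only -0.09, and its lowest value over the other 13 pairs was -0.33. The TGS1 value in YPR045C thus may not reflect TGS1 RNA.

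Of 21 genes for RNA polymerase II transcription 7 rose and 5 fell, with a median of 0.01. ADA2 (0.35 ± 0.06), a SAGA subunit, and SPT15 (0.30 ± 0.07), the TATA-binding protein, were among those that rose, with 0.10 and 0.61 and with 0.28 and 0.31 on the arrays once the dye effect was removed, while TOA2 and GAL11 were among the 5 that fell. In 5 of these 12 genes both arrays had one sign. Of 39 ribosome biogenesis genes 5 rose and none fell, with a median of 0.06. They included the helicase genes ECM16 (0.37 ± 0.07) and ROK1 (0.36 ± 0.07), which with the dye effect removed had 0.53 and 0.22 and 0.51 and 0.21. NIP7 (0.26 ± 0.07) had 0.34 and 0.17 as measured, but 0.53 and -0.014 with the dye effect removed. Its sign, like that of NOP56, thus did not hold on the Cy3 array with that dye effect. Of 36 exosome and decay genes 4 rose and 3 fell. RRP6, the nuclear exosome nuclease, had -0.003 and 0.84, a mean of 0.42 ± 0.08, and MOT2, the ubiquitin ligase of the Ccr4-Not complex, had 0.06 and 0.59, a mean of 0.32 ± 0.06. AIR2, a TRAMP subunit (-0.33 ± 0.06), and PAT1, a decapping activator (-0.30 ± 0.06), fell. With the dye effect removed RRP6 had 0.61 and 0.23, MOT2 0.24 and 0.41, and AIR2 -0.17 and -0.48. PAT1 kept opposite signs, at 0.48 and -1.08.

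Of 53 small ribosomal subunit protein genes 3 fell and none rose, with a median of 0.03, and of 72 large ribosomal subunit protein genes 1 rose, RPL43A, and 1 fell, RPL16B (-0.25 ± 0.07). The 3 that fell were RPS22B, RPS14B (-0.25 ± 0.06) and RPS19A (-0.20 ± 0.06). As measured, RPS14B (-0.49 and 0.0007 on the arrays), RPS19A (0.07 and -0.48) and RPL16B (0.29 and -0.80) had opposite signs. With the dye effect removed these 3 lay below 0 on both arrays, and RPS22B did so either way. No gene passed among 15 intron genes of ER to Golgi transport, where SNC1, a v-SNARE (-0.20 ± 0.06), and GOT1 (-0.15 ± 0.05) were the largest. The same held for 5 intron genes of the respiratory chain, led by COX4 (-0.13 ± 0.06) and QCR10 (-0.09 ± 0.07). Of 7 tubulin and actin genes, SAC6, which encodes the actin bundler fimbrin, rose (0.22 ± 0.06) and the alpha-tubulin gene TUB3 fell (-0.20 ± 0.05). Of 12 meiotic genes MER1, a splicing activator of meiosis, rose (0.29 ± 0.08), but with the dye effect removed it had -0.11 and 0.69 on the arrays. Among 11 hosts of snoRNAs in introns IMD4, for IMP dehydrogenase, rose (0.27 ± 0.07) and RPS22B fell. IMD4 was -0.057 and not called with the median over its probes in place of the mean. Among 13 genes regulated through their own intron GLC7, the type 1 phosphatase, rose (0.21 ± 0.06) and RPS14B fell. One of 12 chaperone genes fell, the Hsp110 gene SSE2 (-0.31 ± 0.06), with 0.45 and -1.06 on the arrays, or 0.046 and -0.66 with the dye effect removed. Of the tRNA genes, 3 of 40 nuclear and 7 of 24 mitochondrial tRNA genes fell and none rose, with medians of -0.11 and -0.11. Of the 7 mitochondrial genes 2, tC(GCA)Q and tV(UAC)Q, had one sign on both arrays as measured, and 6 did with the dye effect removed. In tD(GUC)Q, for example, the values were 0.64 and -1.46 as measured and -0.28 and -0.54 without the dye effect.

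**Figure D3:**
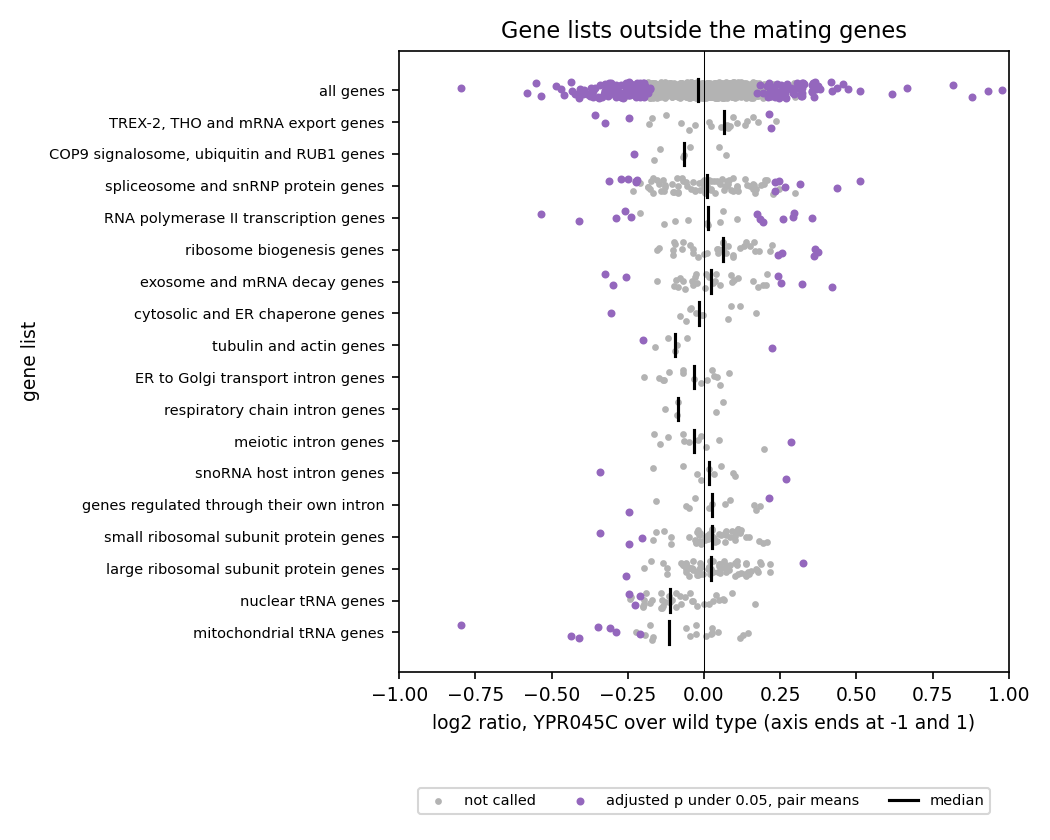
YPR045C pair means (log2 ratio, horizontal axis, cropped at -1 and 1) for each list outside the mating genes and for all 982 genes (vertical axis). Each point is a gene, purple where called in the limma fit over pair means, and black bars are list medians. The transcription and spliceosome lists have calls on both sides of 0, and both tRNA lists have medians of -0.11 and calls below 0 only.

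The question of the study was whether these mutants change splicing, which shows as a difference between probes of 1 gene rather than in the gene's mean. Among genes with at least 3 probes, 84 of 696 probes (12.1%) differed from the mean of the other probes of their gene, 47 higher and 37 lower. Over single arrays 2 did (0.287%). Those 2 were probes of IMD4 and RPS14B. The IMD4 probe had a ratio of 1.02 and stood 1.13 ± 0.15 above the rest of its gene, by 1.24 and 1.03 on the 2 arrays (adjusted p = 0.0041 over single arrays). The same probe had 0.83 in csn12 and 1.63 in ist3 by that difference. The RPS14B probe stood 0.79 ± 0.10 above the rest of its gene, by 0.58 and 1.0 (0.0041 over single arrays). The differences in csn12 and ist3 were 0.07 and 0.99. RPS14B encodes a small ribosomal subunit protein and regulates its own splicing. Next came probes of RPS30B (0.69 ± 0.15), RPL35A (0.64 ± 0.17), RPL32 (0.63 ± 0.10), RPS18A (0.63 ± 0.11), STO1 (0.59 ± 0.11), RPL30 (0.59 ± 0.14) and PRE3 (0.58 ± 0.13), all above the rest of their gene, and of RBS1 (-0.61 ± 0.12), below it.

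The labels and files do not say which probe lies in an intron, an exon or a junction. The layout of the array sorts the probes of 186 genes into 3 classes. In these genes 2 of the 3 probes lie in linked wells, and the third, here class A, lies elsewhere. The linked probes were split by position alone into class X and class Y, where X is the position that stood higher in isy1, tgs1 and ynr004w. The rule was set after the data were seen but without YPR045C values. In YPR045C class X also stood above class Y: in 80.1% of 186 genes by the pair mean, and in 119 and 114 genes on the single arrays. The median of X minus Y was 0.15, with 0.14 on the array with the mutant in Cy5 and 0.27 on the other. Class X had a median ratio of 0.10 and class Y of -0.07. For single genes the precision was low. Limma called 14 of 186 (7.53%), all with X above Y, and none over single arrays, where 24 had an unadjusted p under 0.05. The count of 14 also depended on the pairs that supply the spread: it was 46 without the tgs1 pair at 10 min after the shift, 1 without its pair at 25 min, and 2 without its pair or the ynr004w pair at 40 min. With arrays scaled to one spread it was 18, of which 16 had X above Y.

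The 14 genes, named after their values were seen, were RPS14B, PRE3, RPS9A, STO1, RPS22B, YML6, TAD3, SEC14, RPS18A, RPL21B, RPS10A, RPL16A, COX4 and NYV1. In RPS14B, X minus Y was 0.49 and 0.88, a mean of 0.68 ± 0.11: its class X probe had -0.11 and 0.67, its class Y probe -0.60 and -0.21. PRE3, a catalytic subunit of the proteasome, had 0.26 and 0.99, a mean of 0.63 ± 0.16. RPS9A had 0.12 and 1.03, a mean of 0.57 ± 0.11. STO1, the large subunit of the nuclear cap-binding complex, had 0.73 and 0.33, a mean of 0.53 ± 0.12. In these genes X lay above Y on both arrays, by unequal amounts. SEC14, for a phosphatidylinositol transfer protein of the Golgi, had 0.27 and 0.73, a mean of 0.50 ± 0.11, and TAD3, a subunit of the tRNA adenosine deaminase, had 0.40 and 0.61, a mean of 0.51 ± 0.12. YML6, for a mitochondrial ribosomal protein, had 0.47 and 0.57, a mean of 0.52 ± 0.12. RPS10A had 0.76 and 0.16, a mean of 0.46 ± 0.11. RPS18A was the exception among the 14, with -0.07 and 1.03 on the 2 arrays. The other 5 had means of 0.39 to 0.53.

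**Figure D4:**
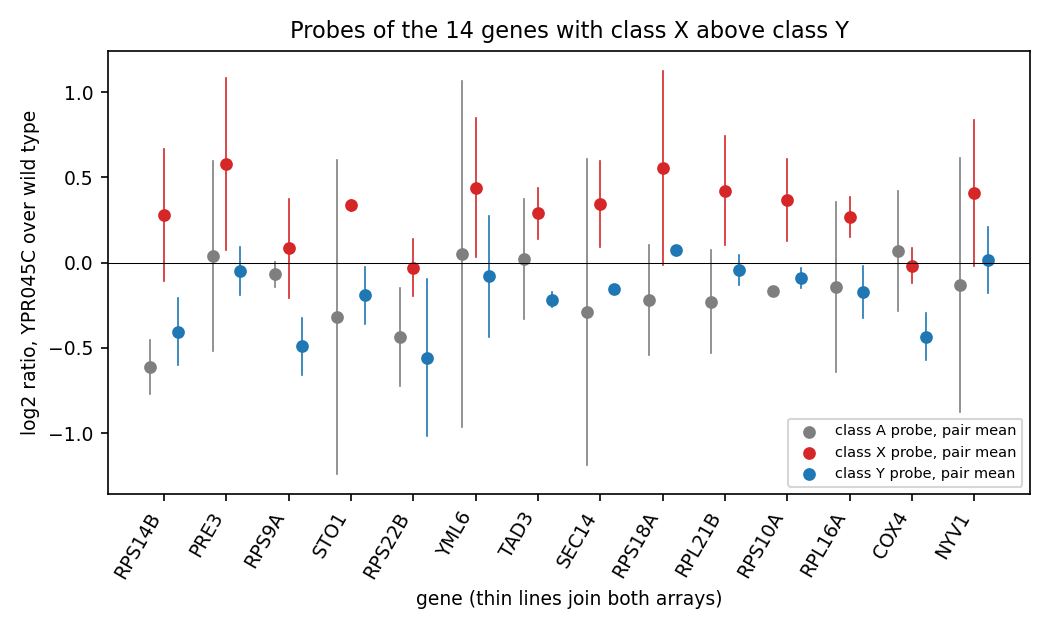
Log2 ratios (vertical axis) of the class A (grey), X (red) and Y (blue) probes of the 14 genes with X above Y (horizontal axis), YPR045C over wild type. Points are pair means and thin lines join both arrays; in RPS14B class X has 0.28 and class Y -0.41.

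Ribosomal protein genes and other genes shared the direction. Class X lay above class Y in 32 of 34 small subunit genes (94.1%, median 0.22, 5 called), 32 of 40 large subunit genes (80%, median 0.19, 2 called) and 85 of 112 other genes (75.9%, median 0.14, 7 called). For the small subunit genes the medians on the 2 arrays were 0.03 and 0.43. All 5 genes for spliceosome proteins in this contrast, STO1, MUD1, LSM7, SMD2 and LSM2, had X above Y in the pair mean (median 0.34), with medians of -0.07 and 0.63 on the arrays. In the 15 ER to Golgi genes X lay above Y in 13, and the medians of 0.27 and 0.22 were alike on both arrays. The 8 ubiquitin and RUB1 genes had X above Y in 4 and a median of 0.01.

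The third probe leaned the other way in the pair mean. Class A stood below the mean of X and Y in 137 of 186 genes (median -0.09), and 29 (15.6%) were called, 26 lower and 3 higher. None was called over single arrays, where 7 had an unadjusted p under 0.05. With arrays scaled to one spread 32 were called, 25 lower. The array medians were 0.03 with the mutant in Cy5 and -0.24 with it in Cy3, so unlike X minus Y this contrast did not keep its sign between arrays. These medians hold the dye effect, which cancels in the pair mean. They also changed sign in csn12 (0.12 and -0.26), csn9 (0.16 and -0.004) and, at 30 °C, tgs1 (0.10 and -0.29) and ynr004w (0.10 and -0.43). They did not in ist3, isy1 or pci8. The genes with A called below and X called above Y were RPS14B, SEC14, RPS18A, RPL21B and RPS10A. In RPS18A the A contrast was -0.57 and -0.50 on the arrays, and in RPS14B -0.41 and -0.68, while in SEC14 it was 0.65 and -1.42. The 3 genes with A higher were ECM33, a cell wall protein gene (0.55 ± 0.15, with 0.21 and 0.90), POP8, for a subunit of RNase P and RNase MRP (0.45 ± 0.11), and SMD2, for a core snRNP protein (0.40 ± 0.10), the last 2 with opposite signs on the arrays.

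**Figure D5:**
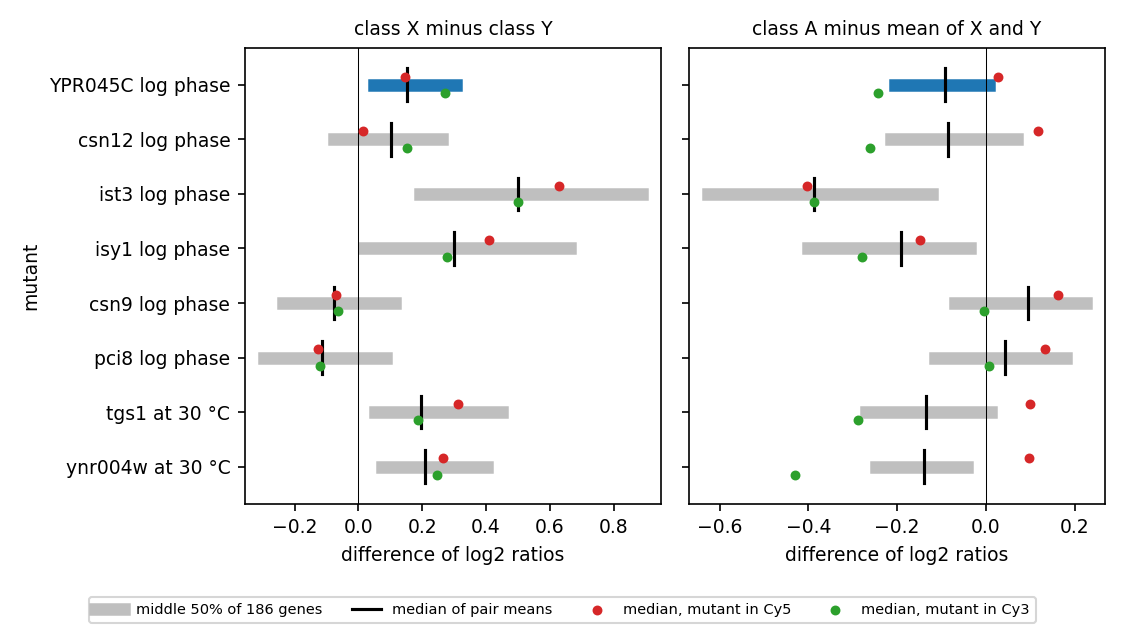
Differences of log2 ratios between probe classes (horizontal axes) over 186 genes in each mutant at 30 °C (vertical axis). Bars span the middle 50% of genes, black lines are medians of pair means, red and green points medians of the single arrays. For X minus Y the YPR045C median of 0.15 lies between csn12 (0.10) and tgs1 (0.19) and below ist3 (0.50).

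Across the mutants at 30 °C the median of X minus Y was 0.50 in ist3, 0.30 in isy1, 0.21 in ynr004w, 0.19 in tgs1, 0.15 in YPR045C, 0.10 in csn12, -0.07 in csn9 and -0.11 in pci8. The csn12 arrays had medians of 0.02 and 0.15 and X above Y in 117 of 186 genes. The single arrays of csn9 and pci8 all had medians below 0. Because class X was defined on isy1, tgs1 and ynr004w, their place in this order is not a finding. Per gene, 5 of 186 (2.69%) differed between YPR045C and csn12 in limma: RPS14B (0.68 against 0.01), RPS13 (0.25 against -0.47) and the meiotic recombinase gene DMC1 (0.15 against -0.60) were higher in YPR045C, and the helicase gene DBP2 (0.42 against 1.20) and VMA10, for a subunit of the vacuolar ATPase (-0.03 against 0.81), were lower. None of the 186 was called by limma over single arrays, where 6 had an unadjusted p under 0.05. Against ist3, 64 (34.4%) differed, 62 of them lower in YPR045C, and 28 (15.1%) did over single arrays, all lower. In RPS14B X minus Y was 0.68 in YPR045C and 0.74 in ist3, and did not pass (adjusted p = 0.81). Class A stood lower in ist3 too: 61 of 186 genes (32.8%) differed, all with a higher contrast in YPR045C. Against csn12 19 genes (10.2%) differed in that contrast, 8 higher and 11 lower.

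Csn12 is the partner of Thp3, and the question between these mutants was which genes differ between them. In limma 135 of 982 genes (13.7%) differed from pair means, 69 higher and 66 lower in YPR045C, and 17 (1.73%) over single arrays. Whether both mutants were set against the same wild-type RNA is not known. The mating genes led: MF(ALPHA)1 was 4.84 against 0.06, MATALPHA1 3.99 against 1.06 and MFA2 -3.16 against -0.73. Among genes lower in YPR045C than in csn12 were 3 chaperone genes and a translation factor. KAR2, the Hsp70 of the ER, was 0.12 against 1.20, the disaggregase gene HSP104 was 0.08 against 1.21, and the Hsp90 gene HSC82 was 0.09 against 1.28 (adjusted p of 0.0011, 0.0028 and 0.0015). GCN3, a subunit of the exchange factor eIF2B, was -0.12 against 1.13. Of these 4, HSP104 and GCN3 were also called over single arrays. In YPR045C none of the 4 differed from wild type by the test.

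Against ist3, 82 genes (8.35%) differed, 40 higher and 42 lower, and 4 (0.407%) over single arrays: MFA2, GPD1, PPZ1 and RPS9A. MF(ALPHA)2 was 3.02 against 1.90 and MATALPHA1 3.99 against 3.25, while MFA1 (-2.14 against -1.47) did not pass (adjusted p = 0.11). TDH1, a glyceraldehyde-3-phosphate dehydrogenase gene, was 0.35 against -0.56. GPD1, the glycerol-3-phosphate dehydrogenase of osmotic stress, was -0.05 against -0.82, and PPZ1, a phosphatase that regulates ion transport, was 0.00 against -0.64. SPL2, a regulator of phosphate uptake, was -0.05 against -0.75. RPS9A was -0.16 against 0.71, PBP1, the poly(A)-binding protein partner, -0.03 against 0.55, and tC(GCA)Q -0.80 against 0.39. Apart from TDH1, tC(GCA)Q and the mating genes, the YPR045C values here lay between -0.16 and 0.00. The count was 128 without the tgs1 pair at 40 min.

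Set against the other 5 log-phase strains together, where the spread is that between different mutants, limma called no gene, and 8 of 982 had an unadjusted p under 0.05. These were MF(ALPHA)2 (2.67 ± 0.70 above their mean), MATALPHA1 (2.97 ± 1.01), STE3 (2.25 ± 0.79), KAR4 (0.82 ± 0.31), MFA1 (-1.54 ± 0.56), MFA2 (-2.62 ± 0.79), CYC8 (-0.46 ± 0.15) and YLL017W (-0.70 ± 0.19). Without ist3 limma called 4 genes: MF(ALPHA)1 at 4.44 ± 0.24 above the other 4 strains, MF(ALPHA)2 at 3.06 ± 0.20, STE3 at 2.69 ± 0.20 and MATALPHA1 at 3.52 ± 0.34 (adjusted p between 0.00098 and 0.0077). CYC8 and YLL017W, outside the mating lists, had the lowest values of all 14 pairs in YPR045C. They were among 61 of 982 genes for which this held. They were listed here for an unadjusted p under 0.05 against the other strains, so this rank is not a separate result.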

How the data were processed

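Per the labels, acid phenol was used to extract total RNA, and aminoallyl-dUTP was built in during cDNA synthesis. The deposited table gives 1 value per spot, read as a log2 ratio of mutant over wild type. Scanner, background correction, normalization, log base and direction of the authors' values: not given in the sources used here. Medians of the arrays lay between -0.03 and 0.03. All 28 columns matched a sample by name. Of 1536 probes printed 6 times, 1457 carried a gene name (982 genes, all matched to the RefSeq R64 table) and 79 had none. No genome build is named, so no coordinates are given.

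Arrays were centred on their median, and the 6 spots of a probe, the probes of a gene and both arrays of a pair were averaged. A probe needed a value on both YPR045C arrays and in every other pair, which left out 2 probes. Models were fitted with limma 3.58.1 (lmFit, eBayes, under R 4.3.3), with the 14 pair means in 10 groups, time points at 16 °C serving as repeats (4 residual and 6.35 prior degrees of freedom, prior SD 0.065). For the 28 arrays with a dye term, the prior SD was 0.194 with 13 residual degrees of freedom. The array numbers, 1 and 2, mark dye orientation, so the dye term is also the block for replicate number. Tests were 2-sided with Benjamini-Hochberg adjustment over all features of a comparison. The number of arrays limits the precision. The scripts were tested on simulated data.

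Members, lists and comparisons were chosen with earlier results of these data known. Named genes were THP3 and its neighbours, the 15 highest and 15 lowest called with one sign on both arrays, all called over single arrays, all members of the 4 mating lists, up to 4 of each other list, the 10 probes farthest from the rest of their gene, and the 6 highest and 6 lowest of each comparison. Probe classes came from the array layout, where linked wells lie 2 blocks apart in one row, with no column shift or a shift of 6 columns. They were found in 188 genes, of which 186 had all values, and were added after the data were seen. Alternatives changed centring, scaling, summaries, filters and the source of the spread.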

Additional observations from a re-analysis of the deposited data

Results flagged for a closer look

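The following differences passed the test of the difference itself between YPR045C and another mutant (limma over pair means, Benjamini-Hochberg adjustment). Against csn12, YPR045C minus csn12 was 4.78 for MF(ALPHA)1, 3.31 for MF(ALPHA)2, 2.94 for MATALPHA1, 2.66 for STE3, 1.66 for HMRA2 and 1.38 for MATALPHA2. It was -1.004 for MFA1, -1.09 for KAR2, -1.13 for HSP104, -1.19 for HSC82, -1.25 for GCN3 and -2.43 for MFA2. Against ist3, YPR045C minus ist3 was 1.11 for MF(ALPHA)2, 0.91 for TDH1, 0.78 for GPD1, 0.75 for MATALPHA1, 0.70 for SPL2 and 0.64 for PPZ1. It was -0.58 for PBP1, -0.86 for RPS9A, -1.06 for MFA2 and -1.18 for tC(GCA)Q. The groups are single pairs, and a difference between their wild-type samples cannot be told apart from one between the mutants.

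Probes without a gene name lay outside every comparison above. In a limma fit over all probes, 21 of 79 were called from pair means, 16 higher and 5 lower, and 4 over single arrays, all higher. Among the 1455 probes with a gene name 14.4% were called from pair means and 0.962% over single arrays. Pair means of the 79 probes without a gene name ran from -0.60 to 1.47. The highest had 1.19 and 1.75 on the 2 arrays and 2.16 in ist3, 0.66 in csn12 and -0.17 in isy1.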

How the results depend on the processing

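The count of genes apart from wild type stayed within 1.5 times of 185 under every centring, scaling, summary and filter tried, and the source of the spread changed it most. With the replicate block (single arrays with a dye term) the counts were 10 genes, 14 probes, 2 probes against the rest of their gene, 17 genes against csn12, 4 against ist3, and 0 for both class contrasts; with no replicate block they were 6, 7, 1, 5, 1, 0 and 0, and with the 6 arrays of csn12, YPR045C and ist3 they were 10, 10, 0, 17, 0, 0 and 0. Leaving out 1 of the 6 pairs at 16 °C gave 156 to 230 genes, 169 to 246 probes, 56 to 120 probes against the rest of their gene, 107 to 156 genes against csn12, 61 to 128 against ist3, 1 to 46 for X minus Y and 28 to 37 for class A. Leaving out 1 YPR045C array, over single arrays, gave 8 to 9 genes, 8 to 10 probes, 0 probes against the rest of their gene, 8 to 13 genes against csn12, 0 to 1 against ist3 and 0 in both class contrasts. Leaving out 1 of the other 5 strains gave 0 to 4 genes. The median of the 6 spots gave 24 genes for X minus Y. Genes whose sign turned were IMD4 (-0.057 with the median over its probes) and, without replicate 1 and without replicate 2 respectively, NOP56 (-0.15 and 0.88), NIP7 (-0.014 and 0.53), PAT1 (-1.08 and 0.48), SSE2 (-0.66 and 0.046), MER1 (0.69 and -0.11) and the tRNA gene YNCG0027W (-0.50 and 0.0070). The values without 1 array equal those with the dye effect of the other 13 pairs removed, so they are not a separate check. Of the 80 named genes 25 kept their side of the threshold with the replicate block and 55 lost it. The cause was not tested. Signal over background is not given, so its limit on dim probes is unknown.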
